A study of Arabidopsis thaliana with 4 samples.

Results

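FLC (FLOWERING LOCUS C, locus AT5G10140) is the gene knocked out in the flc-3 mutant of this study according to its labels. Its transcript was followed here on every array. It was read by a single probe set, FLC.250476_at in gene and probe set notation, 1 of 22746 on the ATH1 array once 64 control probe sets are set aside. The assignment of this probe set to FLC was given with the choice of the gene. The platform annotation used here does not name it, so the assignment rests on that statement and was not checked against probe sequences.

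Transcripts of whole Arabidopsis thaliana seedlings in the Col-0 background were measured on 4 1-colour arrays, 2 of a wild type labelled as FRI and FLC and 2 of flc-3, labelled as a knockout of At5g10140. All seedlings, at developmental stage 1.02, grew for 6 days under constant light, were entrained for 4 days at 22 °C with 12 h of light and 12 h of darkness per day, and were then moved to constant light at 27 °C. Each array carried equal amounts of RNA from 24, 30, 36 and 42 h after the move, so a value is an average over a circadian cycle without phase. The titles write the mutant with a lower-case fri, so the groups may differ at FRI as well as at FLC, and in these arrays the effects of the 2 genes cannot be told apart.

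FLC is a MADS-box transcription factor that represses flowering. It binds regulatory sequence of the floral promoters FT and SOC1 and holds their transcription down. FRI raises FLC transcription, while the autonomous pathway, and after a winter Polycomb proteins, lower it. Plants with active FRI and FLC therefore flower late unless they have been through cold, and FLC has also been linked to the period of the circadian clock, which the move of entrained seedlings to warm constant light addresses. The flc-3 allele is known for a small deletion at the start of the gene that takes away the start codon. ATH1 probes are generally drawn from the 3′ end of transcripts. Probe positions were not used here. If its probes lie outside the deleted stretch, the probe set does not check the deletion, and its signal reports how much FLC transcript is left.

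FLC signal was among the brightest of the array in the wild type and below the 25th percentile of the array in flc-3. The deposited MAS5 signal, a linear intensity scaled by array, was 775 in wild type replicate 1 and 680 in wild type replicate 2. It was 9.97 in flc-3 replicate 1 and 12.5 in flc-3 replicate 2. Both wild-type arrays were high and both flc-3 arrays were low, and the genotypes did not overlap. The mean was 727 ± 67.5 (SD, n = 2) in the wild type and 11.2 ± 1.81 (SD, n = 2) in flc-3. Set pair by pair, wild-type signal exceeded flc-3 signal by between 54.3-fold (the second replicates) and 77.7-fold (the first replicates). As a share of the wild-type mean, the flc-3 signals came to 1.37% and 1.72%. Part or all of the flc-3 signal may be background. Suppose that the probes lie outside the deleted stretch. Suppose also that signal is a part proportional to RNA plus a background that is alike on all arrays and not negative. These shares are then upper bounds for the FLC transcript left, and the folds are lower bounds. None of these conditions was tested. In whole seedlings, fewer cells with the transcript and less transcript per cell cannot be told apart.

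**Figure D1:**
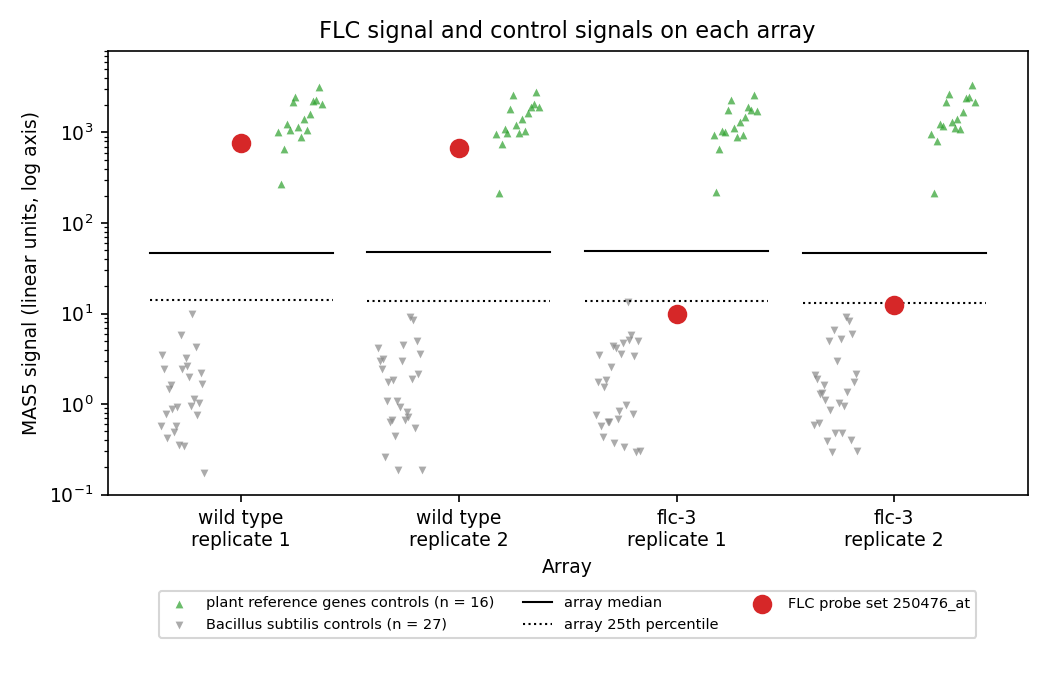
MAS5 signal (log axis) of the FLC probe set on each of the 4 arrays (red), beside 16 control probe sets for plant reference genes (green), 27 for Bacillus subtilis genes (grey), the array median (line) and the 25th percentile (dotted). FLC reads 775 and 680 in the wild type, against 9.97 and 12.5 in flc-3, where it lies under the dotted line.

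The order of the arrays by FLC signal was wild type replicate 1, wild type replicate 2, flc-3 replicate 2 and flc-3 replicate 1. Arrays of 1 genotype were not separated beyond what other probe sets of like signal showed. On the log2(signal + 1) scale, the wild-type replicates differed by 0.19. Among the 500 probe sets nearest in wild-type level, the median replicate difference was 0.14, and 34.6% of them differed by more than FLC. The flc-3 replicates differed by 0.30, where the 500 probe sets nearest in flc-3 level had a median of 0.33 and 53.8% differed by more. The difference between genotypes was 31.1 times the replicate difference of the wild type and 19.5 times that of flc-3.

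A rank within an array does not depend on how the array was scaled. It does compare signals of different probe sets, whose response to a given amount of RNA differs, so it places a signal and not an amount of transcript. Ranked from the brightest of 22746 probe sets, FLC stood at 646 in wild type replicate 1 and at 789 in wild type replicate 2. It stood at 18126 in flc-3 replicate 1 and at 17269 in flc-3 replicate 2. As percentiles these ranks were 97.2 and 96.5 in the wild type, against 20.3 and 24.1 in flc-3. FLC signal was 16.4 and 14.4 times the array median in the wild type, and the median was 4.86 and 3.76 times the FLC signal in flc-3.

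No other probe set moved as far through the ranking. The mean percentile of FLC changed by -74.7 points from the wild type to flc-3, and the next largest fall among the 22746 was that of AT4G14090, with a change of -38.6. Of 2131 probe sets above percentile 90 in both wild-type arrays, FLC was the only 1 below percentile 50 in both flc-3 arrays. In the opposite direction, 0 probe sets went from below percentile 50 in both wild-type arrays to above 90 in both flc-3 arrays. In both flc-3 arrays, 4410 probe sets (19.4%) were dimmer than FLC, and in both wild-type arrays 634 (2.79%) were brighter.

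**Figure D2:**
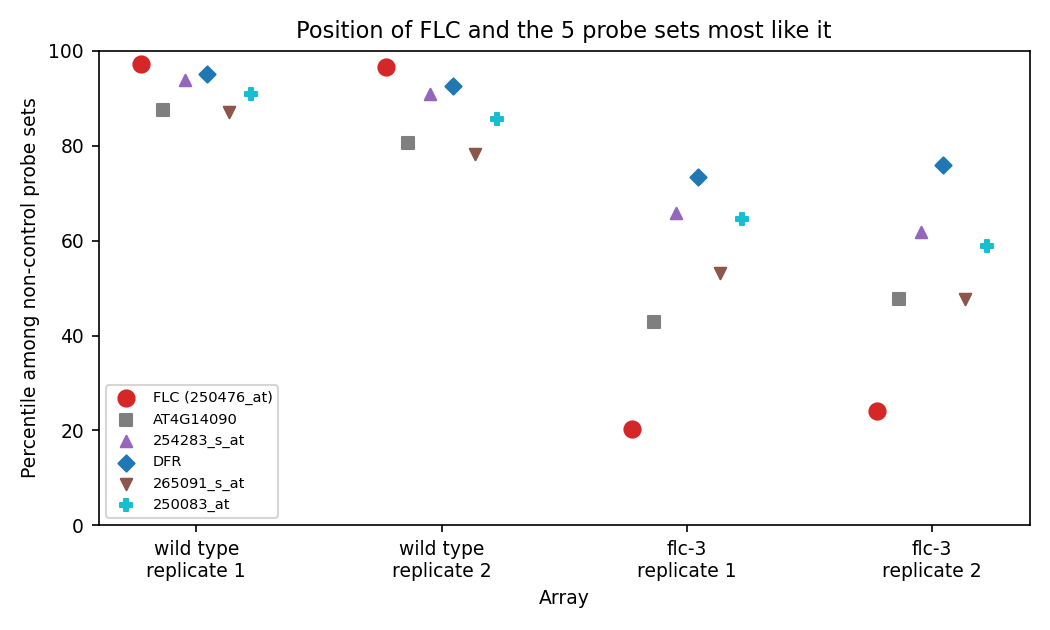
Percentile among 22746 non-control probe sets on each array for FLC (large red circles) and the 5 probe sets whose pattern over the 4 arrays was most like it. FLC goes from 97.2 and 96.5 in the wild type to 20.3 and 24.1 in flc-3, while AT4G14090, the next largest fall, goes from 87.4 and 80.5 to 42.9 and 47.7.

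The comparison of the genotypes asked how far FLC transcript is lost in flc-3 at 27 °C, and how that loss stands among all differences. FLC was lower in flc-3, with a difference of -5.90 ± 0.15 (moderated SE, n = 2 arrays per genotype) on the log2(signal + 1) scale and a 95% interval of -6.23 to -5.57. That is a 59.7-fold lower signal on this scale, in limma over 13648 probe sets with Benjamini-Hochberg adjusted p = 8.39e-08. Of the 9.54 degrees of freedom of this limma fit for FLC, 7.54 came from the spread of other probe sets and 2 from FLC. The interval therefore does not rest on the FLC replicates alone. In that fit 239 probe sets were called at 0.05 (1.75%), 42 of them lower in flc-3 (0.308%) and 197 higher (1.44%). FLC had the smallest p and the largest difference of all 13648 in either direction. The next largest fall was -2.26, that of AT4G14090, so the fall of FLC was larger by 3.64 on the log2 scale. The largest rise was 3.44, that of PAP85, a vicilin-type seed storage cupin. Only 5 probe sets differed by more than 3 and only FLC by more than 4. Genotypes that did not overlap were common at this number of arrays (43% of tested probe sets, 22.8% with flc-3 lower), so that feature alone does not distinguish FLC.

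**Figure D3:**
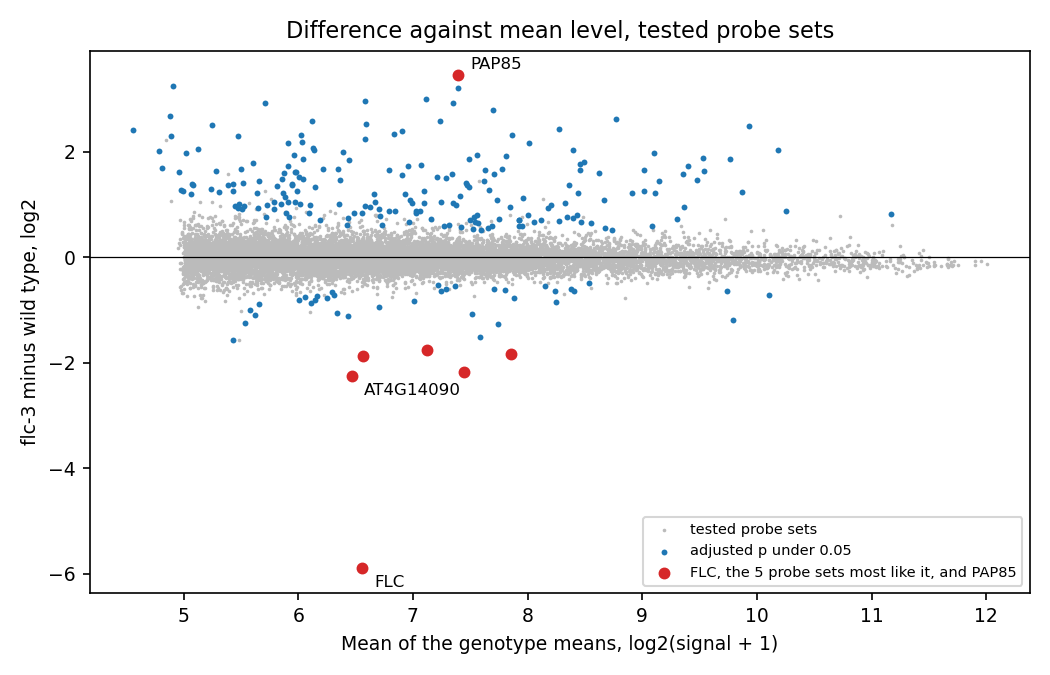
Difference between flc-3 and wild type (log2) against mean level for 13648 tested probe sets (grey), with those at an adjusted p under 0.05 in blue, and FLC, the 5 probe sets most like it and PAP85 in red. FLC lies alone at -5.90, and the next lowest probe set, AT4G14090, is at -2.26.

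FLC entered the tested set through its wild-type signal. Probe sets with a mean signal under 31.2 over the 4 arrays were left out, and the flc-3 mean of 11.2 would not have passed by itself. With no such filter, over 22746 probe sets, FLC had the same difference and limma adjusted p = 6.79e-05. An exact permutation test of FLC alone over the 4 arrays gave p = 0.333 (2-sided), the smallest that 2 arrays against 2 allow.

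The size of the fold depends on how dim signals are treated. With a pseudocount of 16 in place of 1 the difference was -4.77, or 27.3-fold. With each array's signals below the 25th percentile raised to that percentile it was -5.65, or 50.2-fold. Over 16 alternative fits, the difference lay between -6.05 and -4.77 and passed in all 16, and FLC had the largest absolute difference in each of them.

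**Figure D4:**
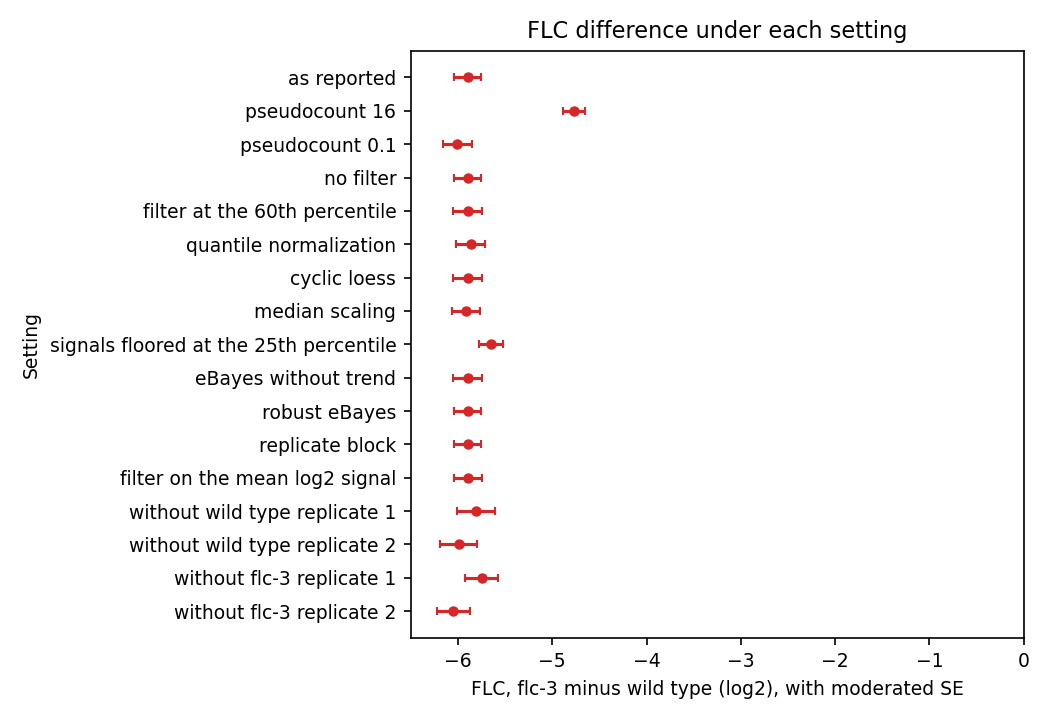
Difference of FLC between flc-3 and wild type (log2, with moderated SE) as reported and under 16 alternative fits. With a pseudocount of 16 the value is -4.77, and the others lie between -6.05 and -5.65.

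As a check of the labels, both arrays labelled wild type read higher in FLC than both arrays labelled flc-3. No cut-off from outside these 4 arrays was used. The check also assumes that flc-3 lowers the FLC transcript, which the same values were used to measure. If signal were proportional to RNA, which was not tested, a seedling sample with more than about 1.72% of wild-type RNA would have read above both flc-3 arrays. That figure is the reading of flc-3 replicate 2 itself. The check says nothing about flc-3 RNA in the wild-type samples. The check does not reach the FRI allele, since a loss of FRI function also lowers FLC. It likewise does not show which sequence change the mutant carries.

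Control probe sets for genes of the bacterium Bacillus subtilis gave a reading that does not come from the plant, with the limit that the labels do not say whether such RNA was added. Their 27 signals had medians of 1.13 and 1.75 in the wild-type arrays and of 1.55 and 1.31 in the flc-3 arrays, with highest values of 9.97, 9.07, 13.5 and 9.14. In the wild type, FLC was above all 27 on both arrays. In flc-3 replicate 1, FLC (9.97) was above 26 of them and below the brightest (13.5), and in flc-3 replicate 2 (12.5) it was above all 27. Probe sets differ in their response and in their background, so these positions give no amount of FLC transcript. Detection calls were not used here, so whether FLC was detected in flc-3 was not settled.

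Control probe sets that report on the RNA and the hybridisation had smaller mean differences between genotypes than FLC. Between single arrays, 25S ribosomal RNA varied widely. The 16 probe sets for actin, GAPDH and ubiquitin, plant genes used as references, had differences of -0.15 to 0.11 with a median of -0.03. The 3′ to 5′ signal ratio of actin, a measure of RNA integrity, was 1.30 and 1.35 in the wild type, against 1.40 and 1.31 in flc-3. A control for 25S ribosomal RNA read 135 and 47.6 in the wild type, against 1426 and 45.7 in flc-3. Its mean difference of 1.67 rests on flc-3 replicate 1. The 18 hybridisation spikes, bacterial and phage transcripts added in the laboratory, had medians of 168 and 298 in the wild type, against 112 and 171 in flc-3, and a median difference of -0.64. Wild type replicate 1 and flc-3 replicate 2, whose spike medians were 168 and 171, had a 61.9-fold FLC ratio. That is 1 pair of arrays, and the part of the hybridisation in the FLC difference was not tested. RCA and LHCB4.1, chloroplast genes of green tissue, and PYK10, a root glucosidase gene, all lay at percentile 99.8 or higher on each array, as the whole-plant label has it. The root hair expansin genes EXPA7 and EXPA18 had differences of 0.69 and 0.34, neither past the threshold (limma adjusted p = 0.118 and 0.429), and their part in the FLC result was not tested.

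The probe sets most like FLC were ranked by the root mean square distance between their centred log2 values and those of FLC over the 4 arrays, a description that carries no test and, at 4 arrays, could not be given as a correlation. A probe set with no change at all would be 2.95 from FLC. The nearest, AT4G14090, an anthocyanin 5-O-glucosyltransferase gene, was 1.83 away. Next came 254283_s_at, unnamed in the annotation, at 1.87, and DFR, the dihydroflavonol reductase of anthocyanin synthesis, at 2.03. They were followed by 265091_s_at, which the annotation pairs with several genes, at 2.04, and 250083_at, unnamed, at 2.09. The median over all tested probe sets was 2.95, so the nearest patterns still differed from FLC by most of its own change.

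These 5 probe sets, chosen on these same arrays for a pattern like that of FLC, fell together but less far. Their shared fall follows from that choice, and p-values of such members add no support. AT4G14090 read 235 and 158 in the wild type, against 36.1 and 43.1 in flc-3. DFR read 513 and 372 against 116 and 126, a difference of -1.84 ± 0.15 (limma adjusted p = 0.000111). The unnamed 254283_s_at read 435 and 314 against 87.9 and 73.8. The 5 remained the nearest with a pseudocount of 16. With no filter on dim probe sets none of the 5 was among the nearest, whose place was taken by probe sets with wild-type signals of 7.79 to 25.8. The second largest fall was then -2.91.

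The other genes of the pathway could be followed only in part, because the annotation used here pairs few of them with a probe set. Of 79 genes on the lists of FLC relatives, targets, regulators and clock genes, 12 had a probe set paired with their locus and 9 were tested. None of the 9 passed in limma over all probe sets, against 1.75% of all tested probe sets. Of the 9, 2 had an unadjusted limma p under 0.05. The share of all tested probe sets under that level was not counted, so the 2 are not read as an excess. The 9 genes are too few to be read against such a share. Their median difference was 0.06 against -0.01 over all tested probe sets, and the genotypes did not overlap in 3 of the 9, against 43% of all.

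Among floral integrators, FLC partners and targets, 4 of 18 genes had such a probe set. FT and SOC1, the floral promoters named above, had none, so their response was not followed. SMZ, an AP2-type repressor of flowering, read 84.4 and 76.4 in the wild type, against 66.6 and 73.8 in flc-3, a difference of -0.19 ± 0.14 (limma adjusted p = 0.642). SNZ, its close relative, read 40.8 and 51.2 against 46.9 and 48.6, with overlapping genotypes. FD, the bZIP partner of FT, and AGL24, a MADS-box promoter of flowering, were too dim to be tested. FD read 22.4 and 16.2 against 20.6 and 21.1, and AGL24 read 2.98 and 3.21 against 1.88 and 2.22.

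Among the regulators that act upstream of FLC, the autonomous pathway genes FY and LD, of 8 on that list, and FLX, of 17 FLC activators, had such a probe set. FY, an RNA 3′ processing factor that lowers FLC, read 53.4 and 62 in the wild type, against 46 and 29 in flc-3. Its genotypes did not overlap, but its difference of -0.64 ± 0.22 did not pass (limma adjusted p = 0.271). The size of that difference rested on the flc-3 arrays, with -0.96 without flc-3 replicate 1 and -0.32 without flc-3 replicate 2. With the replicate number as a block it passed (limma adjusted p = 0.0159), in a fit with a single residual degree of freedom. The spread used in that fit came almost wholly from other probe sets. Its limma adjusted p-values were extreme (2.05e-177 for PAP85), and its calls are not relied on. Replicate numbers were not shown to pair the arrays. LD, a homeodomain protein that lowers FLC, read 69.3 and 88.3 against 97.6 and 74, with overlap. FLX (AT2G30120), a component of the FRI complex that raises FLC transcription, read 18.7 and 16.3 against 19.2 and 29.4 and was too dim to be tested. None of the 5 other genes of the FLC clade or of the 8 vernalization and Polycomb genes had such a probe set.

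Of 23 clock genes, 5 were tested. FIO1, whose loss lengthens the circadian period, read 28.2 and 21.1 against 47.4 and 42, a difference of 0.85 ± 0.20 (limma adjusted p = 0.0871). It passed without wild type replicate 1, with a difference of 1.04 (limma adjusted p = 0.0267), in a fit that assumes the lone wild-type array to vary like the flc-3 arrays. It also passed with the replicate number as a block (limma adjusted p = 0.0009), in a fit with a single residual degree of freedom. As for FY, that pass is not relied on. Replicate numbers were not shown to pair the arrays. RVE6 (AT5G52660), a MYB-type factor of the clock, read 78.6 and 93.2 against 92.9 and 91, a difference of 0.10 ± 0.14 (limma adjusted p = 0.825) that turned to -0.019 without wild type replicate 1. The difference was 0.12 for GI, which acts in the clock and in photoperiodic flowering, and 0.015 without wild type replicate 1. It was -0.10 for TIC, a clock regulator, and -0.034 without wild type replicate 2. XCT, whose loss alters the period, had a difference of -0.06. Genotypes overlapped in RVE6, GI, TIC and XCT, and all 5 differences were small beside that of FLC.

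Of the genes beside FLC in TAIR10.1 gene order, 6 protein-coding genes on each side, 4 had a named probe set and 3 were tested. Of these, 1 was called higher and 0 lower in flc-3, where 1.44% of all tested probe sets were called higher and 0.308% lower, and 3 genes are too few to be read against such shares. AT5G10120 rose, from 213 and 168 in the wild type to 320 and 301 in flc-3, a difference of 0.71 ± 0.13 (limma adjusted p = 0.0219). That call was lost without flc-3 replicate 1 (adjusted p = 0.163) or replicate 2 (0.0783), without the filter (0.114) and without the intensity trend (0.0953). AT5G10160 read 208 and 243 against 226 and 229, and AT5G10190 read 60.3 and 52.3 against 55.9 and 54.2, both with overlap. The immediate neighbour AT5G10130 was too dim to be tested, at 31.6 and 22.9 against 33.1 and 28.5.

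**Figure D5:**
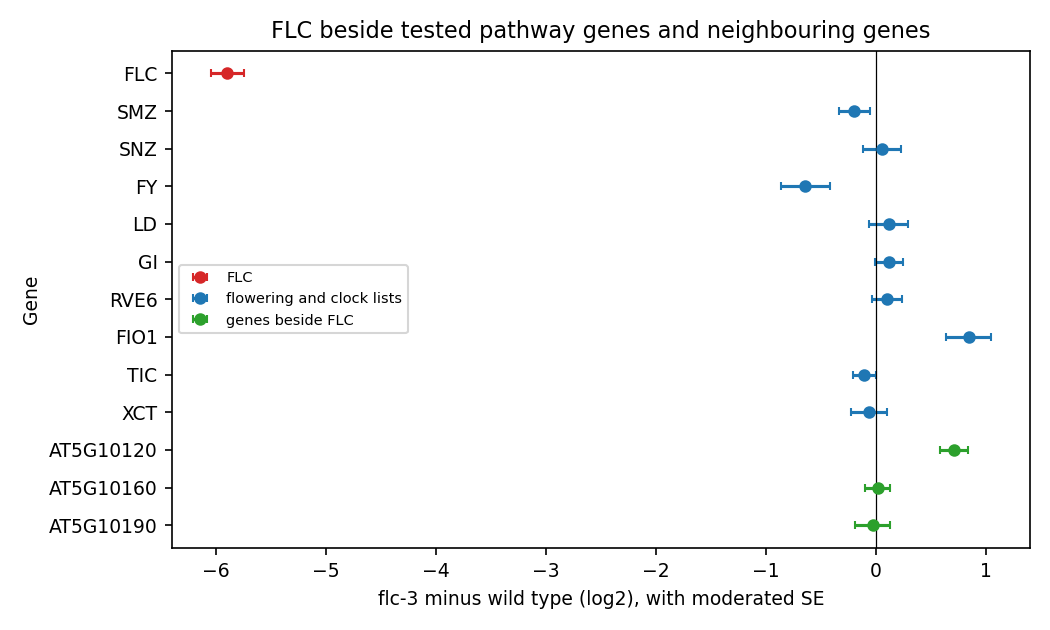
Difference between flc-3 and wild type (log2, with moderated SE) for FLC (red), the 9 tested genes of the flowering and clock lists (blue) and the 3 tested genes beside FLC (green). FLC lies at -5.90, and the others lie between -0.64 (FY) and 0.85 (FIO1).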

How the data were processed

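The authors deposited 1 MAS5 signal intensity (linear scale) for each of 22810 probe sets on 4 arrays. MAS5 is named per the submitters' processing notes, without a version. Each array has a mean of 100.01 after trimming 2% at each end, so the deposited scaling was kept.

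Values were transformed as log2(signal + 1). Non-control probe sets with a mean signal at or above the 40th percentile (13648 of 22746) were tested in R 4.3.3 with limma 3.58.1 (lmFit, eBayes with an intensity trend), 2-sided, with a single genotype term and p-values adjusted by Benjamini-Hochberg at 0.05. The moderated fit had 9.54 degrees of freedom for FLC. The steps were run on simulated data, with independent normal noise drawn from the fitted spread and known changes added. That checks the code and not the assumptions of the fit. FLC is probe set 250476_at. Other genes were named through a platform annotation and the TAIR10.1 gene table, which placed 13436 probe sets at a single locus. Of 79 listed genes, 77 matched the table by symbol and locus, and 2 (FLX and RVE6) by locus, where the table gives no other name.

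The gene, the lists and the alternatives were chosen with earlier results of these data known. Named by rule were FLC, the 5 probe sets most like it, the largest rise, called list members, and the 3 largest differences of a list or all of a short one. The neighbouring genes, the tissue markers and other listed values were added afterwards. The labels do not state whether the replicates are separate cultures, so the p-values reflect only array-to-array spread, possibly technical, and the small number of arrays limits precision. Coordinates are left out because the values name no build.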

Additional observations from a re-analysis of the deposited data

Results flagged for a closer look

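The control for 25S ribosomal RNA, used in no test, was far above its wild-type signals of 135 and 47.6 on a single array. It read 1426 on flc-3 replicate 1 and 45.7 on flc-3 replicate 2. FLC differed between genotypes by -5.75 without flc-3 replicate 1.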

How the results depend on the processing

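FLC kept its direction and its call in 16 of 16 alternative limma fits, among them 1 chosen after seeing the data, a filter on the mean log2 signal. The exact permutation test, with the same difference of -5.90, could not pass at this number of arrays (p = 0.333). Leaving out 1 array gave -6.05 to -5.75. The replicate number shared by arrays of different genotype was not shown to pair them (correlation of replicate differences across probe sets 0.09). With it as a replicate block the FLC difference was -5.90, with a limma adjusted p that came out as 0. In that fit 780 probe sets passed, 280 of them lower, and 2 listed genes, FY and FIO1. It had a single residual degree of freedom and took its spread almost wholly from other probe sets, so its calls are not relied on. With no filter 121 passed, 14 of them lower. Without 1 array 146 to 374 passed (374 without wild type replicate 1, 146 without flc-3 replicate 1), with 24 to 74 lower and 0 to 1 listed genes. Ranked among tested probe sets only, FLC lay at a mean percentile of 94.7 in the wild type (96.8 among all) and 0.00366 in flc-3 (22.2 among all), since the filter takes away probe sets dim in both genotypes. FLC signal in flc-3 was 8.00 times the median bacterial control, and 11.2 times with controls of the older design only, a ratio between different probe sets that gives no amount of transcript. Of the 5 probe sets most like FLC, 0 stayed among the nearest 5 with no filter. Among genes that did not pass, the sign turned without 1 array for SNZ (-0.10 to 0.22), LD (-0.080 to 0.32, and -0.055 without wild type replicate 1), RVE6 (-0.019 to 0.22), XCT (-0.15 to 0.021), AT5G10160 (-0.094 to 0.13) and AT5G10190 (-0.13 to 0.072). The cause of these changes was not tested.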
